A study of Homo sapiens with 2 samples.

Results

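The genes examined encode 10 core proteins of stress granules, namely G3BP1, G3BP2, TIA1, TIAL1, CAPRIN1, USP10, UBAP2L, ATXN2, ATXN2L and FMR1. They were chosen by name, for the known role of their products in granule assembly. Earlier results of these data were known when they were chosen. All 10 symbols were found among the 57736 genes listed for each library. The RNA-Seq data came from HEK293T, a cell line derived from human embryonic kidney and transformed with viral genes, among them the large T antigen of SV40, and recorded as wild type in genotype. The labels gave 1 group of 2 libraries, called here replicate 1 and replicate 2, and the cells of each were lysed separately. In both, by the labels, the cells were held at 43 °C for 20 min and then returned to 37 °C for 6 h. Poly(A)+ RNA was then purified and read at 50 bp. The text of the study gives a longer heating time, stated with a shorter recovery. Untreated cells are not analysed here, so no value below is a change with heat shock. Each value is an mRNA level after recovery, and neither the proteins nor the granules themselves were measured.

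Stress granules are cytoplasmic condensates of untranslated mRNA, initiation factors and RNA-binding proteins. They form when translation initiation is blocked, for example when heat or another stress activates a kinase of the initiation factor eIF2alpha, and they dissolve as the stress passes. G3BP1 and its paralogue G3BP2 act as the scaffold whose binding to free mRNA drives condensation, while the other proteins of the set bind to that scaffold, to mRNA or to both.

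Replicate 1 held 22529828 expected counts, the reads that the quantifier assigned to genes, and replicate 2 held 26890199. Of the markers set for the cells, 6 of 8 matched kidney epithelial genes and 5 of 7 matched neuronal genes were detected, taken as reaching a TPM of 1 in each library. TPM is a level per transcript length, scaled to the same total in each library. Of blood markers, PTPRC and CD3E had no count in either replicate. Both matched endothelial markers, VWF and CDH5, were below detection. Fibroblast markers were summed to a TPM of 24.7 and 22.9 in replicates 1 and 2, nearly all of it COL1A1. The part of such cells in the levels below was not tested. The molecule field of the labels reads genomic DNA, although their own protocol describes poly(A)+ RNA.

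All 10 genes were expressed after recovery, against 26.3% of all listed genes that reached that threshold. Their mean TPM ran from 39.4 to 395, with a median of 129, and the lowest of them stood at the 75.3 percentile of detected genes, whose median TPM was 14.3. Summed, the 10 genes held 0.185% of all TPM in replicate 1 and 0.197% in replicate 2. A lower level in a bulk library can come from fewer expressing cells or from less RNA in each, which cannot be told apart. The first question was how much of each core transcript the recovered cells held, and it is answered below by the role of the protein.

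G3BP1 lies on the plus strand of chromosome 5 (ENSG00000145907, GRCh37, chr5:151150606-151192472, protein coding, 14 isoforms listed). Its TPM was 90.2 in replicate 1 and 92.6 in replicate 2, a mean of 91.4 ± 1.65 (SD, n = 2). G3BP2 lies on the minus strand of chromosome 4 (ENSG00000138757, chr4:76567033-76649773, 19 isoforms). Its TPM was 84.0 and 94.7, a mean of 89.3 ± 7.57 (SD, n = 2). The scaffold transcripts were thus held at like levels per length, and the library ranges of the pair overlapped. G3BP1 made up 51.8% of the summed TPM of the pair in replicate 1 and 49.4% in replicate 2, so that the higher of the pair differed between the libraries.

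CAPRIN1, an RNA-binding protein that binds G3BP and promotes granule formation, lies on chromosome 11 (ENSG00000135387, chr11:34073278-34124157, plus strand, 17 isoforms). Its TPM was 247 and 264 in replicates 1 and 2, a mean of 256 ± 12.5 (SD, n = 2). USP10, a deubiquitinase that binds the same domain of G3BP and opposes granule formation, lies on chromosome 16 (ENSG00000103194, chr16:84733592-84813528, plus strand, 19 isoforms). Its TPM was 308 and 306, a mean of 307 ± 1.93 (SD, n = 2). Both libraries thus held more USP10 than CAPRIN1 transcript per length, the mean being 1.20 times as high, and the library ranges did not overlap. Read against the summed TPM of G3BP1 and G3BP2, which was 174 and 187, CAPRIN1 stood at 1.42 in replicate 1 and 1.41 in replicate 2. USP10 stood at 1.77 and 1.63 on the same ratio. On TPM, each ligand of G3BP, one that promotes granules and one that opposes them, was therefore above the combined scaffold transcripts in both libraries.

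UBAP2L, a G3BP-binding protein needed for efficient granule assembly, lies on chromosome 1 (ENSG00000143569, chr1:154192655-154243986, plus strand, 19 isoforms). Its TPM was 399 in replicate 1 and 392 in replicate 2, a mean of 395 ± 4.74 (SD, n = 2), which was the highest mean of the 10. It stood at 2.29 and 2.09 times the summed G3BP1 and G3BP2 TPM. Among 12367 detected protein-coding genes, the 2 nearest to UBAP2L in the levels of both libraries, by distance on log2(TPM + 1), were RAC1 (a TPM of 397 and 395) and HNRNPAB (396 and 379).

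TIA1 and TIAL1 are RNA-binding proteins with RNA recognition motifs and a prion-like tail that helps to nucleate granules and to repress translation. TIAL1 lies on chromosome 10 (ENSG00000151923, chr10:121331314-121356541, minus strand, 14 isoforms), and its TPM was 95.2 in replicate 1 and 115 in replicate 2, a mean of 105 ± 14.2 (SD, n = 2). TIA1 lies on chromosome 2 (ENSG00000116001, chr2:70436576-70475792, minus strand, 20 isoforms), and its TPM was 27.5 and 51.2, a mean of 39.4 ± 16.7 (SD, n = 2). TIA1 was the lowest of the 10 in both libraries, and TIAL1 held 77.6% and 69.2% of the summed TPM of the pair. The 2 protein-coding genes nearest to TIA1 in level were PLOD2 (27.3 and 50.7) and NOL8 (28.2 and 50.3).

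ATXN2, which carries a polyglutamine tract and binds the poly(A)-binding protein, lies on chromosome 12 (ENSG00000204842, chr12:111881289-112037480, minus strand, 26 isoforms). Its TPM was 145 in replicate 1 and 161 in replicate 2, a mean of 153 ± 10.9 (SD, n = 2). Its paralogue ATXN2L lies on chromosome 16 (ENSG00000168488, chr16:28834320-28848558, plus strand, 26 isoforms), with a TPM of 375 and 364, a mean of 369 ± 7.53 (SD, n = 2). ATXN2L thus held 72.1% and 69.4% of the summed TPM of the pair.

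FMR1, the translational repressor whose loss causes fragile X syndrome, lies on the X chromosome (ENSG00000102081, chrX:146993437-147032645, plus strand, 13 isoforms). Its TPM was 76.9 in replicate 1 and 129 in replicate 2, a mean of 103 ± 37.1 (SD, n = 2), the largest SD of the 10. The relatives of FMR1, which bind it and enter granules too, were FXR1 (a TPM of 90.1 and 167) and FXR2 (50.0 and 44.9). FMR1 made up 35.4% and 37.9% of the summed TPM of the trio and FXR1 made up 41.5% and 48.9%, so that FXR1 was the highest of the 3 in both libraries.

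**Figure D1:**
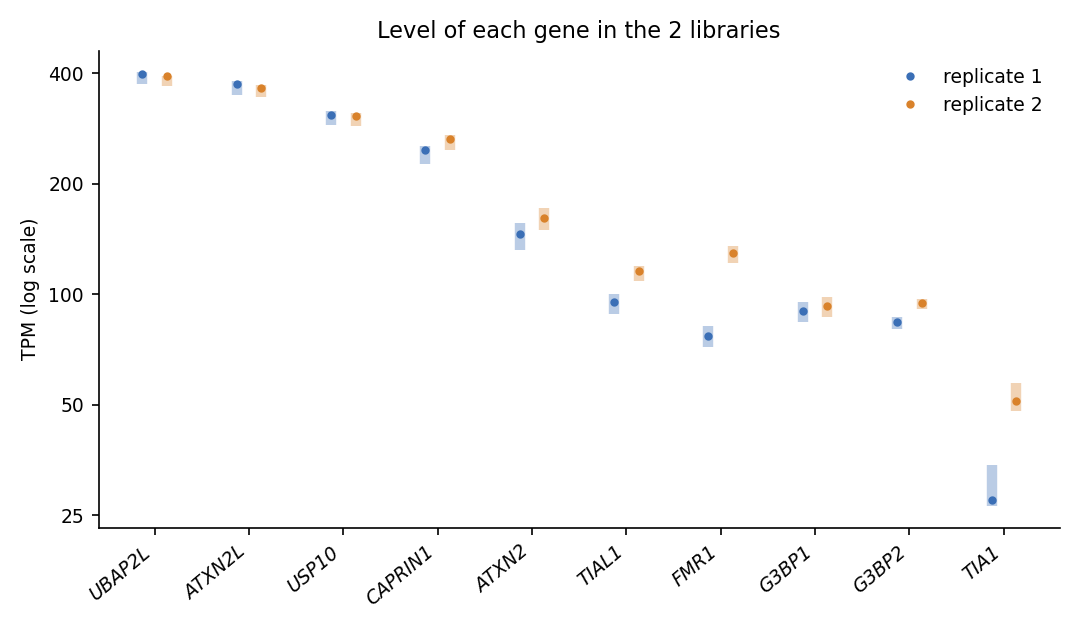
TPM of each of the 10 genes (y axis, log scale) in replicate 1 (blue) and replicate 2 (orange), ordered by mean TPM, with the credibility bounds of the deposited tables as bars, whose level is not stated in the sources used here. UBAP2L is at the left with 399 and 392, TIA1 is at the right with 27.5 and 51.2, and FMR1 and TIA1 show the widest gaps between the libraries.

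In descending order of mean TPM the genes were UBAP2L, ATXN2L, USP10, CAPRIN1, ATXN2, TIAL1, FMR1, G3BP1, G3BP2 and TIA1. The library ranges of 6 of the 9 neighbouring pairs in that order did not overlap. TIAL1 and FMR1, FMR1 and G3BP1, and G3BP1 and G3BP2 did overlap and cannot be ordered from these libraries. UBAP2L and ATXN2L were apart by library ranges, but their credibility bounds overlapped, since UBAP2L had bounds of 374 to 402 in replicate 1 and ATXN2L had bounds of 348 to 380. The plot of TPM by gene shows these gaps on the log scale. The highest gene was 14.5 times the lowest in replicate 1 and 7.66 times in replicate 2, a difference that followed the TIA1 value. The bounds of the libraries did not overlap for 4 of the 10 genes, which were TIAL1, FMR1, G3BP2 and TIA1. The share of all genes with such bounds was not taken, so this count marks no trait of these genes.

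The order depended on the scaling by length. On CPM, which counts reads with no regard to length, CAPRIN1 was the 2nd of the 10 (461 and 471 in replicates 1 and 2) and G3BP2 was the 6th (202 and 219). TIAL1 (107 and 124) was the 9th on CPM and TIA1 (42.3 and 72.9) stayed the 10th. USP10 (314 and 304) was below CAPRIN1 on CPM, and below the sum of G3BP1 (167 and 193) and G3BP2, which turns both of its directions on TPM. The length that the deposited tables give to G3BP2, weighted over isoforms, was 3020 bases in replicate 1, against 1432 for TIAL1.

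In 5 of the 6 families the same gene was highest in both libraries. CAPRIN1 stood beside its paralogue CAPRIN2 (a TPM of 9.92 and 13.5) and held 96.1% and 95.1% of the pair. UBAP2L stood beside UBAP2 (67.7 and 73.2) and held 85.5% and 84.2%. The G3BP pair was the family in which the leading gene changed between libraries. The widest shift within a family was in the FXR trio, where the share of FXR2 was 23.0% in replicate 1 and 13.2% in replicate 2.

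**Figure D2:**
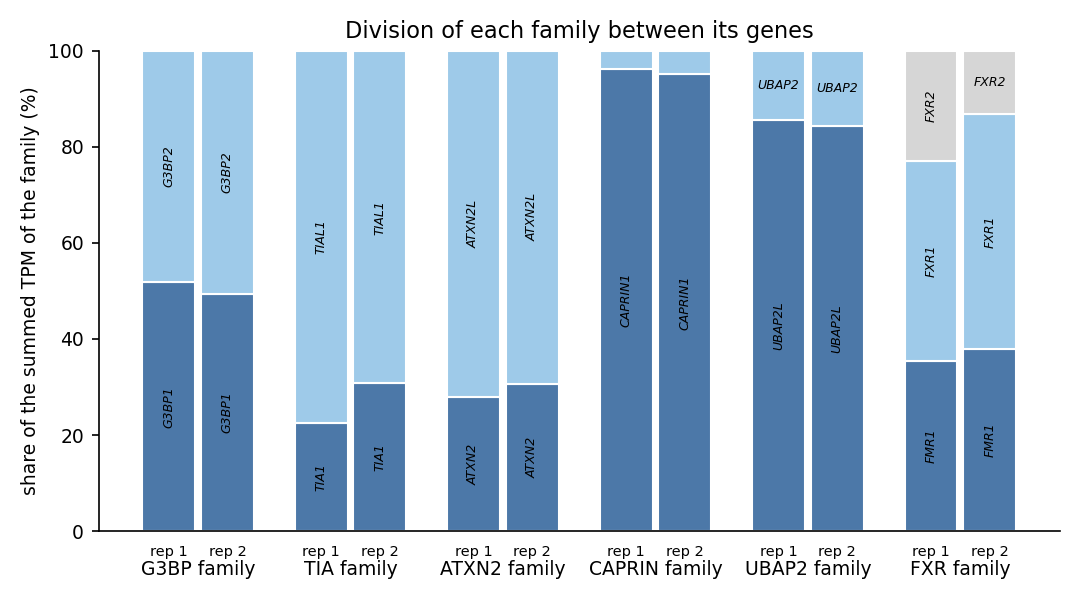
Share of the summed TPM of each family (y axis, percent) held by its genes, stacked in 1 bar for each library. G3BP1 and G3BP2 divide their family almost evenly, at 51.8% and 49.4% for G3BP1, while CAPRIN1 holds 96.1% and 95.1% beside CAPRIN2, the unlabelled top of those bars.

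Reads of some members could be shared with other genes. No member shared an identical run of 50 bases, the read length, with another member of the set in the reference transcripts. TIA1 shared 162 such runs, 2.31% of its own, with C2orf42, a neighbour whose exons overlap those of TIA1 by 211 bases on the same strand and which had 274 and 297 expected counts. The posterior SD of the TIA1 count, the quantifier's own uncertainty over shared reads, was about 7 reads in each library, the one member at 5 reads or more. USP10 shared 371 runs, 6.44% of its own, with a processed pseudogene that was at 0 counts in both libraries. On the opposite strand, exons of G3BP1 overlapped those of ATOX1 by 130 bases, exons of ATXN2 overlapped SH2B3 by 69 bases and ATXN2-AS by 56, and exons of G3BP2 overlapped USO1 by 13. For ATXN2L, 512 runs, 6.79% of its own, were shared with an antisense lncRNA of the annotation that is not analysed here. The exons of UBAP2L contain SNORA58, with 4.43 expected counts in replicate 1. G3BP1, G3BP2, TIAL1, CAPRIN1 and ATXN2 each shared at most 0.359% of their runs with any one other gene, and FMR1 shared none. The genes sharing a run numbered 559 for G3BP2, 263 for ATXN2, 167 for G3BP1, 88 for TIAL1 and 1 for CAPRIN1. The share of runs held in common with all of them together was not computed. None of the sources used here states whether counting used strand. Reads of overlapping antisense genes therefore cannot be told apart, and values of these members are uncertain by that amount.

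The wider set of granule genes held 83 genes found in the tables, of which 82 were detected. Their median TPM was 71.7, against 129 for the core genes. Poly(A)-binding and initiation factors, the translation machinery that stalls in granules, had a median of 324 over 13 genes. Their highest were PABPC1 (4265 and 4312 in replicates 1 and 2), EIF4G2 (1242 and 1429) and EIF4A1 (1395 and 1230), and their lowest was EIF2S1 (61.6 and 55.3), the eIF2alpha subunit itself. The 4 kinases that phosphorylate eIF2alpha had a median TPM of 28.2. Among them EIF2AK1, the haem-regulated kinase HRI, stood at 180 and 177, above EIF2AK4 (27.2 and 33.8), EIF2AK2 (22.1 and 29.8) and EIF2AK3 (18.5 and 21.2).

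Other RNA-binding proteins and helicases of granules had a median TPM of 108 over 36 genes, with YBX1 (2276 and 2136), HNRNPA1 (1400 and 1526) and SERBP1 (1163 and 1490) at the top and CPEB1 (4.54 and 4.75) at the bottom. Regulators and clearance factors had a median of 37.3 over 15 genes. RACK1, a ribosomal scaffold protein that granules sequester, led them at 4395 and 3925, followed by the kinase subunit CSNK2A1 (163 and 167) and the segregase VCP (117 and 107). PARP12 was the undetected gene, with 0 counts in replicate 1 and 2 in replicate 2. Genes of processing bodies, the neighbouring granules of mRNA decay, had a median of 48.9 over 11 genes, from DCP2, the decapping enzyme (19.6 and 31.1), to the helicase DDX6 (70.1 and 85.0), with LSM14A (62.8 and 85.6) and EDC3 (76.8 and 66.7) beside it.

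**Figure D3:**
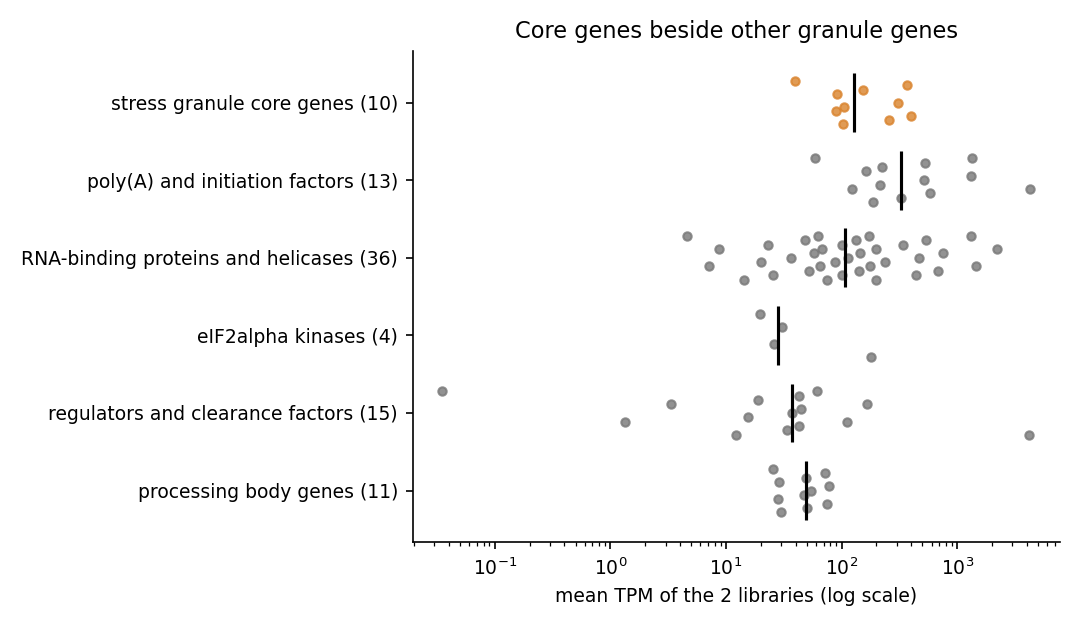
Mean TPM of the 2 libraries (x axis, log scale) for the 10 core genes (orange) and for the other granule groups (grey), 1 point a gene, with the number of genes in brackets and the median as a black line. The core genes lie between 39.4 and 395 with a median of 129, below the initiation factors at 324 and above the processing body genes at 48.9, and PARP12 is the point at the far left.

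The second question was how far the 2 libraries of the group differed for these genes. Counts of each gene were compared by an exact two-sided binomial test after TMM scaling, which sets the libraries to a common total over most genes, and p-values were adjusted by Benjamini-Hochberg over 19714 genes. The test compares these libraries, not conditions, and allows for counting error only. Ratios are given as log2 of replicate 2 over replicate 1, with 95% counting intervals, and a positive value is higher in replicate 2. Of the 10 genes, 8 passed an adjusted p of 0.05, against 43.1% of all genes tested. Members carried many reads, from 2912 to 38482 in both libraries together, and of the 3743 genes with at least 2912 reads 81.5% passed. The count of members is thus near the share seen at their depth. The 5 that passed as higher in replicate 2 stood against 20.9% of all genes, and the 3 that passed as higher in replicate 1 against 22.2%.

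TIA1, with 953 reads in replicate 1 and 1959 in replicate 2, had the widest ratio, 0.74 (0.62 to 0.85), at an adjusted p of 1.71e-38 by the exact binomial test. FMR1 had 2664 and 4529 reads, a ratio of 0.46 (0.39 to 0.53), at an exact adjusted p of 1.06e-38. Both were above the typical difference between these libraries, the median absolute ratio being 0.24 over 13840 genes with at least 100 reads. The absolute ratio of TIA1 was at the 92.2 percentile of those genes and that of FMR1 at the 82.0 percentile. The other 8 members fell between the 3.13 and 36.1 percentiles, so that these libraries differed less in them than in most genes of that set. That set starts at 100 reads, far below the depth of the members. Whether they differed less than genes of like depth was not tested.

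TIAL1 (2402 and 3327 reads) was higher in replicate 2 with a ratio of 0.17 (0.09 to 0.24) and an exact adjusted p of 6.96e-05. For G3BP1 (3771 and 5195 reads) the ratio was 0.16 (0.10 to 0.22), with an exact adjusted p of 1.41e-06, and for G3BP2 (4552 and 5885 reads) it was 0.07 (0.01 to 0.12), with an exact adjusted p of 0.0451. UBAP2L (18342 and 20140 reads) was higher in replicate 1, at -0.17 (-0.20 to -0.14) and an exact adjusted p of 4.59e-29. USP10 (7076 and 8171 reads) followed at -0.10 (-0.14 to -0.05) and ATXN2L (9798 and 11540 reads) at -0.07 (-0.11 to -0.03), with exact adjusted p of 0.000167 and 0.00214. Scaled by library totals the ratios were -0.048 for USP10 and -0.019 for ATXN2L, and neither call held. The G3BP2 call did not hold with a summed count minimum of 1. CAPRIN1 (10382 and 12673 reads) had a ratio of -0.02 (-0.05 to 0.02) and ATXN2 (4866 and 6069 reads) a ratio of 0.01 (-0.04 to 0.07), and their exact adjusted p-values of 0.555 and 0.729 missed the threshold. The median ratio of the 10 genes was 0.04, beside -0.001 over all genes tested.

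An edgeR exact test that assumes a biological coefficient of variation (BCV) of 0.1, a spread between replicates beyond counting error, left 1 member, TIA1, with an adjusted p of 0.0115. This test called 7.24% of all genes, and 6.69% as higher in replicate 2. At an assumed BCV of 0.2, near the 0.20 estimated over both libraries, no member passed, and 0.781% of all genes did. That estimate took these same libraries as replicates, so their difference is part of the spread it gives. Few calls at that setting are therefore no separate evidence on the libraries.

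**Figure D4:**
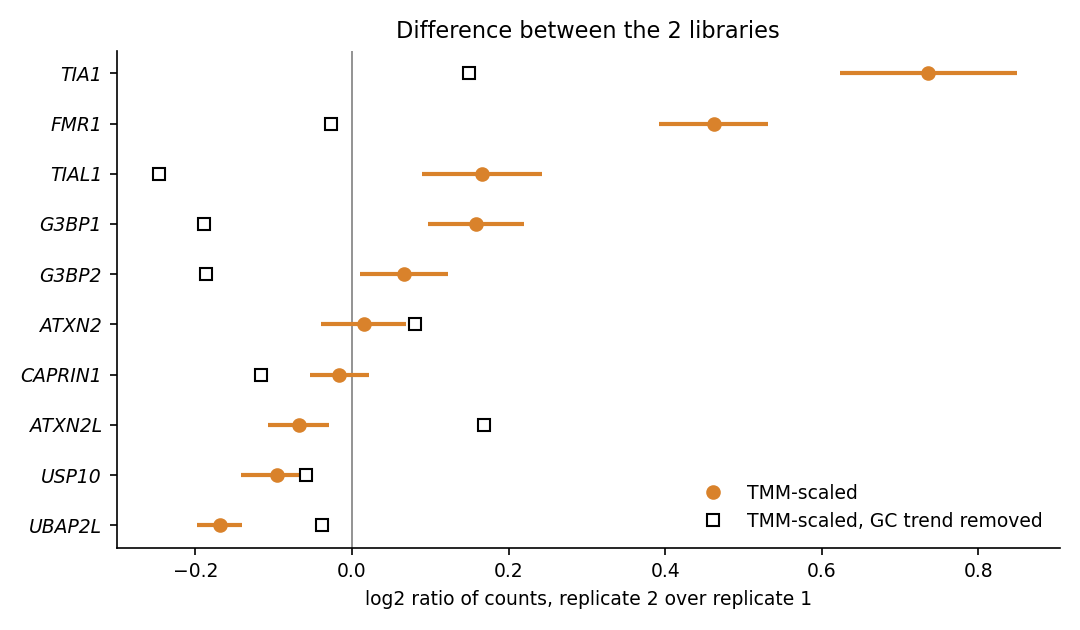
Log2 ratio of counts, replicate 2 over replicate 1 (x axis), for each of the 10 genes, TMM-scaled (orange points, bars of 95% counting intervals) and with the trend on GC content removed (open squares, drawn without intervals). TIA1 and FMR1 stand at 0.74 and 0.46 before removal and at 0.15 and -0.03 after it.

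The ratio between the libraries moved with the GC content of the transcripts. Over genes with at least 100 reads its class median went from 0.79 at a median GC of 37.1% to -0.29 at the highest GC of 20 classes, and 8 of the 10 members were below the median GC of 49.2%. TIA1 (39.0% GC), FMR1 (39.6%), TIAL1 (40.4%), G3BP1 (41.0%) and G3BP2 (42.0%), the 5 members called higher in replicate 2, were the 5 of lowest GC. UBAP2L (51.4%) and ATXN2L (59.6%), called higher in replicate 1, were the 2 above the median, and USP10 (47.6%), the third member called so, lay just below it. The part of GC in the single ratios was not tested, since GC was not varied apart from the library.

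With the GC trend removed, 9 of the 10 genes passed the exact binomial test, against 26.7% of all genes, and 5 members changed direction. No share was taken here among genes of like read depth, which before removal was 81.5% against 43.1% of all genes. For the changes of direction no share of all genes was taken either. TIA1 kept a ratio of 0.15 and FMR1 fell to -0.03, with exact adjusted p-values of 0.0335 and 0.679. TIAL1 stood at -0.25, G3BP1 at -0.19, G3BP2 at -0.19 and ATXN2L at 0.17, each of opposite sign to its ratio before removal and each past the threshold. The 3 members higher in replicate 2 after removal, ATXN2L, TIA1 and ATXN2 (0.08), stood against 13.5% of all genes, and the 6 higher in replicate 1 against 13.2%. Besides TIAL1, G3BP1 and G3BP2, those 6 were CAPRIN1 (-0.12), USP10 (-0.06) and UBAP2L (-0.04). No member had a ratio beyond 0.25 in size on this scale.

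**Figure D5:**
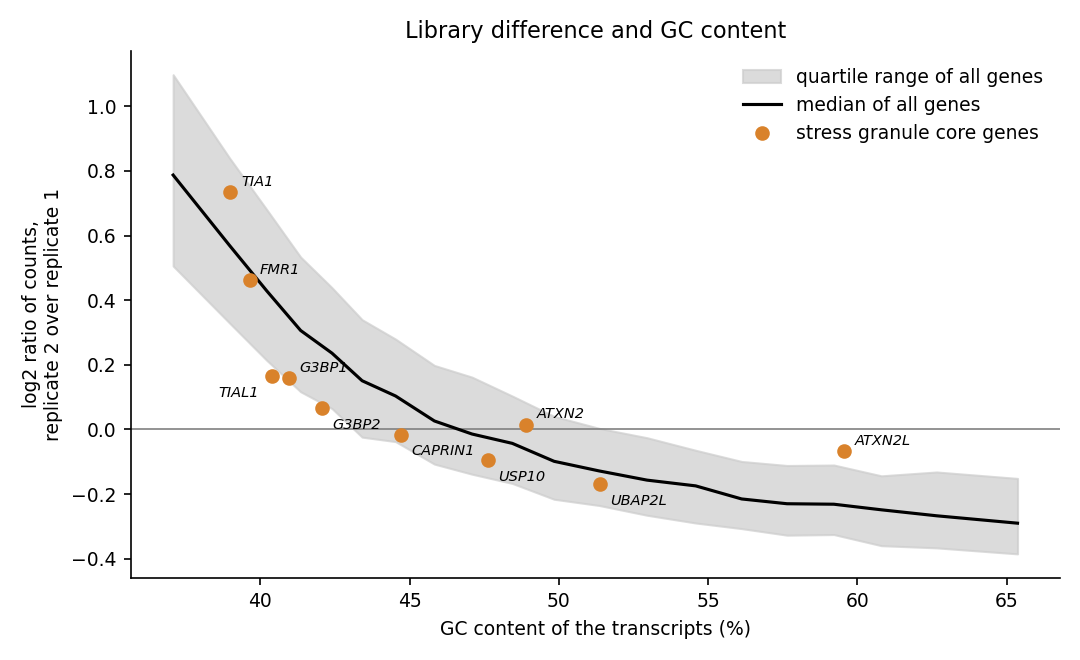
Log2 ratio of counts, replicate 2 over replicate 1 (y axis), against the GC content of the transcripts in percent (x axis), with the 10 genes as orange points and, for all genes with at least 100 reads, the median (black line) and the range between the quartiles (grey band) in 20 classes of GC. TIA1 at 39.0% GC and FMR1 at 39.6% lie at the high end of the falling line, and ATXN2L at 59.6% lies above the band.

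The count and TPM ratios did not always go together, because the isoform-weighted length in the deposited tables also differed between libraries. For G3BP1 that length was 2340 bases in replicate 1 and 2752 in replicate 2, and its ratio was 0.16 on scaled counts and 0.04 on TPM. For FMR1 the length was 1947 and 1735 bases, and its ratio was 0.46 on scaled counts and 0.75 on TPM. The other 8 genes had lengths within 0.1 of each other on the log2 scale. The scales themselves were offset, as the median ratio of genes with at least 100 reads was -0.04 on scaled counts and 0.08 on TPM. Relative to that TPM median, CAPRIN1 (a TPM ratio of 0.10) stood close to it, while UBAP2L (-0.02), USP10 (-0.01) and ATXN2L (-0.04) stood below. Which isoforms moved cannot be read from values summed by gene.

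In the wider set 63 of 82 genes passed the exact binomial test, against 43.1% of all genes tested, with a median ratio of 0.01. Of them 31 were higher in replicate 2, against 20.9% of all genes, and 32 higher in replicate 1, against 22.2%. With the GC trend removed 41 passed, against 26.7% of all genes. With an assumed BCV of 0.1 the edgeR exact test called 4, against 7.24% of all genes. None of these shares was taken among genes of like read depth. The 3 largest ratios toward replicate 2 were those of XRN1, the exonuclease of processing bodies (a TPM of 28.4 and 72.8, ratio 1.12), LARP4 (25.3 and 47.6, ratio 0.85) and NUFIP2 (50.0 and 84.7, ratio 0.77). Toward replicate 1 they were those of TRIM21 (3.79 and 2.92, ratio -0.48), EIF3B (175 and 147, ratio -0.36) and FXR2 (50.0 and 44.9, ratio -0.31). The relative of FMR1 with the higher level, FXR1, had a ratio of 0.54 at 39.9% GC, beside 0.46 for FMR1, and FXR2 had 54.9% GC.

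Heat shock factors bind DNA at inverted repeats of GAA, so the promoters of the core genes were searched for those letters. RefSeq windows (GRCh38.p14, from 250 bases before to 50 after a start) were found for 9 of the 10 genes, 16 windows in all, and none for ATXN2. Either of GAANNTTC and TTCNNGAA, which read the same on both strands, was present in 1 of the 16 windows, that of TIAL1, and in 13.5% of all 35116 windows. The longer form with 3 units, in which GAA and TTC alternate with any 2 bases between them and which contains both shorter motifs, was in none of the 16 and in 0.490% of all windows. The 250 bases before the TIAL1 start (chr10:119596965-119597214, minus strand, GRCh38.p14) are shown because they hold the single match, in capitals, at positions -15 to -8 counted from the start.
TIAL1: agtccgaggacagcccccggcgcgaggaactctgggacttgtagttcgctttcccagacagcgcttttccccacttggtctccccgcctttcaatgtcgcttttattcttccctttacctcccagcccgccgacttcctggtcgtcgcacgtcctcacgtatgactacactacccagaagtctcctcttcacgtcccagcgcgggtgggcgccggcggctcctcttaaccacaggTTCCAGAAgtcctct
The match describes letters in a window and shows no binding, and TIAL1 had a TPM of 95.2 and 115 in these libraries with no untreated value beside it. Median GC content of the 16 member windows was 67.3%, against 58.7% of all windows, and their median ratio of observed to expected CpG was 0.979 against 0.579. These medians are over windows, which were unevenly spread over the genes. Each window of G3BP1 (55.0%), TIAL1 (58.0%) and TIA1 (49.7% and 57.7%) was below the median GC of all windows.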

How the data were processed

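Poly(A)+ RNA of 2 HEK293T replicates was measured, and groups were taken from the labels. Per the submitters' processing notes, reads were trimmed with Trimmomatic 0.36, aligned with STAR 2.6.1c to hg19/GRCh37.p13 and quantified with RSEM 1.3.1. The methods of the study name featureCounts instead, but the deposited columns are those of RSEM. The expected counts deposited by the authors share multi-mapped reads among genes. The deposited TPM and FPKM values had been divided by effective transcript length and scaled within each library by the authors. The series-wide table, taken as a pool of both libraries by the authors, was within 0.5 read of their summed counts for 8 of 10 members.

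Members and lists were chosen with earlier results of these data known. Genes were named by a rule: all members and paralogues, the 3 highest, the lowest and any undetected gene of each wider group, the 3 largest ratios in each direction, the nearest genes, and genes sharing sequence with a member. COL1A1, PTPRC, CD3E, VWF and CDH5 are markers singled out after their values were seen. Names, GC content and positions came from a GENCODE annotation of GRCh37, with 96.1% of identifiers matched. DCP1A, LHX1, NEFL and PECAM1 were not matched, and some marker genes are not reported here. Expected counts were rounded for the binomial test (scipy 1.17.1), with a summed count minimum of 10, TMM factors from edgeR 4.0.16 and a pseudocount of 0.5 count in ratios. A contrast of 2 single libraries leaves no residual degrees of freedom for the edgeR quasi-likelihood test. GC trends were medians in 50 classes. The binomial test was tested on simulated data. Those data held counting error only, with no further spread and no GC trend, so they cannot show how the test behaves on these libraries. Alternatives covered thresholds, units, scaling (DESeq2 1.42.0 size factors), an edgeR exact test with assumed spread, GC removal and leaving out a replicate. Intervals cover counting error only, and the spread between these separately lysed samples may be technical.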

Additional observations from a re-analysis of the deposited data

How the results depend on the processing

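Of 178 values recomputed under alternatives, 125 kept their direction and side of the threshold or moved by less than the spread between replicates. Part of that count was fixed beforehand. With 2 replicates, leaving 1 out always moves a mean by less than their SD, and family shares are the same on FPKM as on TPM. The count is therefore no measure of how stable the results are. With the GC trend removed, the ratios of ATXN2L (0.17), TIAL1 (-0.25), FMR1 (-0.026), G3BP1 (-0.19) and G3BP2 (-0.19) and the median of the members (-0.0485) changed sign. The members then called were 3 as higher in replicate 2 and 6 as higher in replicate 1. Other listed genes called were 41, with 16 as higher in replicate 2. Of all genes 26.7% were called at that setting, 13.5% as higher in replicate 2 and 13.2% as higher in replicate 1. With library totals CAPRIN1 changed sign (0.032) and 1 member was called higher in replicate 1, the calls of USP10 and ATXN2L being lost. The share of all genes called with library totals was not taken. The edgeR exact test at an assumed BCV of 0.1 called 1 member, in replicate 2, and 0 in replicate 1, and 4 other listed genes, all 4 in replicate 2 and 0 in replicate 1. At 0.2 it called 0 members in either direction. Of all genes it called 7.24% at 0.1, with 6.69% as higher in replicate 2, and 0.781% at 0.2. On TPM the median ratio of the members was 0.12. On expected counts, which are not per length, the leading shares were 46.1% for G3BP1, which was then the lower of its pair, 67.3% for TIAL1, 66.2% for ATXN2L, 94.0% for CAPRIN1, 83.6% for UBAP2L and 39.0% for FXR1. In CPM 3 members kept their rank, and with 1 replicate left out 6 to 7 did. With 1 replicate left out, the share of G3BP1 was 49.4% to 51.8%. The G3BP2 call was lost with a summed count minimum of 1, where more genes were tested. Apart from GC removal and library totals, where the alternative itself moves the ratios, the cause of a change was not tested. Depth limited no detection of a member. No paired analysis was possible because only 1 group exists.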
